A study of Homo sapiens with 4 samples.

Results

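The zinc finger genes of chromosome band 5q35.3 are 6 protein-coding genes, ZNF354A, ZNF354B, ZFP2, ZNF454, ZNF879 and ZNF354C, that lie within 450 kb at the distal end of the long arm of chromosome 5. They are 6 of 20155 protein-coding genes and of 566 genes named as zinc finger genes by their symbol (ZNF, ZFP, ZSCAN or ZKSCAN followed by a digit). The genes were chosen by their coverage in the lists analysed here, measured on their gene bodies and on the window chr5:178100000-178550000 (hg19), so the coverage of these bodies and of the window is a description that carries no test.

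To compare the mark in proliferation and senescence, trimethylation of lysine 20 on histone H4 (H4K20me3) was mapped by chromatin immunoprecipitation and sequencing in IMR90 cells, an established line of human diploid lung fibroblasts with a limited lifespan, grown at 3% oxygen. The proliferating cells (PRO) were at population doubling 32, and the cells in replicative senescence (RS), which had stopped dividing after long culture, were at population doubling 86. Each state was profiled with 2 antibodies against H4K20me3, which gave 4 samples, with a histone H4 immunoprecipitation as the control. All values come from a single fibroblast line, the labels do not say whether the antibodies were used on separate cultures, although the study's text speaks of independent experiments for RS, and the lists were deposited per state, so no value below has a replicate error or a p-value. A PRO or RS peak is a stretch found with both antibodies, and a DiffBind region is a stretch that the DiffBind software called different between the states, listed without its direction. The lists hold 2836 PRO peaks, 35535 RS peaks and 18711 DiffBind regions, with no read depth or height, so coverage here is the share of bases lying inside listed regions and says nothing about how strong the mark was.

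C2H2 zinc fingers are small protein units folded around a zinc ion by 2 cysteines and 2 histidines, and proteins with arrays of them read DNA sequence. Many such genes also encode a KRAB domain, which recruits the corepressor TRIM28 and with it the methylation of histone H3 at lysine 9. H4K20me3 is laid down mainly by the SUV420H enzymes on chromatin that already carries trimethylated H3 lysine 9, and it is known from pericentric repeats, telomeres and silenced elements. The bodies of KRAB zinc finger genes, and above all their last exons, are a known place of H3 lysine 9 trimethylation in human cells.

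The name of the group was checked against the GRCh37 sequence, the assembly that shares its coordinates with hg19. In each of the 6 genes the canonical transcript had 5 exons and the whole zinc finger array lay in the last coding exon. The encoded proteins ranged from 461 residues (ZFP2) to 612 residues (ZNF354B), with 11 to 13 matches to a strict C2H2 pattern. Neighbouring fingers are joined by a conserved linker of 5 residues, and 1 finger with the linker on either side of it is printed for each gene as 99 coding bases, since the arrays are both the feature that the genes share and a place where they resemble each other in sequence. Sequences are given 5′ to 3′ on the coding strand from GRCh37, and capitals mark the 2 linkers.
ZNF354A, chr5:178139652-178139750, minus strand: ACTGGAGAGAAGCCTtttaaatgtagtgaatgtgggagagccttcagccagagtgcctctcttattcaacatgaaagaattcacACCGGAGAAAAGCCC
ZNF354B, chr5:178310582-178310680, plus strand: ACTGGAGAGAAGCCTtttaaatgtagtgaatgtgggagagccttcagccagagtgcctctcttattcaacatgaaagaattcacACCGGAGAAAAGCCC
ZFP2, chr5:178358687-178358785, plus strand: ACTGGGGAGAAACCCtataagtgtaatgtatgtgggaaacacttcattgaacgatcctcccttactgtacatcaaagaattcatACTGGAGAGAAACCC
ZNF454, chr5:178392120-178392218, plus strand: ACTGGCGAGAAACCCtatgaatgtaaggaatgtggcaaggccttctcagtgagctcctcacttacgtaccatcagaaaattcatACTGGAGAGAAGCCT
ZNF879, chr5:178459880-178459978, plus strand: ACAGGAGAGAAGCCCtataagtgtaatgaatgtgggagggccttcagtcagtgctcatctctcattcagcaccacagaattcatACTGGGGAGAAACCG
ZNF354C, chr5:178506148-178506246, plus strand: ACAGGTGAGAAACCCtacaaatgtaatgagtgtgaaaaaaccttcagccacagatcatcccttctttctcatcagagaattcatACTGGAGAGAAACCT
The units of ZNF354A and ZNF354B were the same at all 99 bases, with 0 differences, whereas every other pair of the 15 differed at 22 to 29 bases. RS peaks covered the unit in ZNF354B, ZFP2 and ZNF879, covered it in part in ZNF454 and ZNF354C, and did not reach it in ZNF354A. No PRO peak reached any of the 6 units, but these are short and nothing is read from that. Over whole proteins ZNF354A and ZNF354B were 85.0% identical, and the other pairs were 39.8% to 52.2% identical.

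Across the 450 kb window, RS peaks were many and PRO peaks were few. There were 5 PRO peaks that covered 3205 bases (0.712% of the window) and 74 RS peaks that covered 116 kb (25.8%). The ratio of covered bases was 36.2, against 11.1 over the whole lists. Both lists keep only stretches found with both antibodies, and the study reports that the antibodies overlapped far more in RS than in PRO. The part of this in the ratio was not tested. The median RS peak measured 1001 bp, with a range of 201 to 7601 bp, and the PRO peaks measured 1 to 1001 bp. The window held 3.18% of the PRO bases, 5.32% of the RS bases and 6.08% of the DiffBind bases on chromosome 5. Among the 400 other stretches of the same length on that chromosome, none held more RS bases, and 21 of 6866 such stretches elsewhere in the genome did. On chromosome 5 the stretches were laid end to end from the edges of the window, which was chosen by its coverage. Nothing is read from its place among them. DiffBind regions numbered 38 and covered 27.3% of the window.

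Most RS bases of the window lay in the 6 gene bodies, which were chosen by this coverage, so nothing is read from that. The bodies made up 32.2% of the window and held 62.7% of its RS bases. RS peaks covered 50.3% of the summed bodies and 14.2% of the rest of the window, and within that rest 30.7% of the bases less than 10 kb from a member against 6.67% of those further away. The 129 kb between ZNF354A and ZNF354B, which holds the pseudogene AACSP1, had 0.620% of its bases in RS peaks. The densest stretch was that of ZFP2 and ZNF454, where the 50 kb beginning 250 kb after the left edge of the window were 78.0% covered and the 7978 bp between these 2 genes were 90.0% covered. The edges of the window differed in how the coverage ended: 29.2% of the 50 kb inside the left edge and 3.21% of the 50 kb outside it lay in RS peaks, and at the right edge these shares were 36.8% and 0%.

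**Figure D1:**
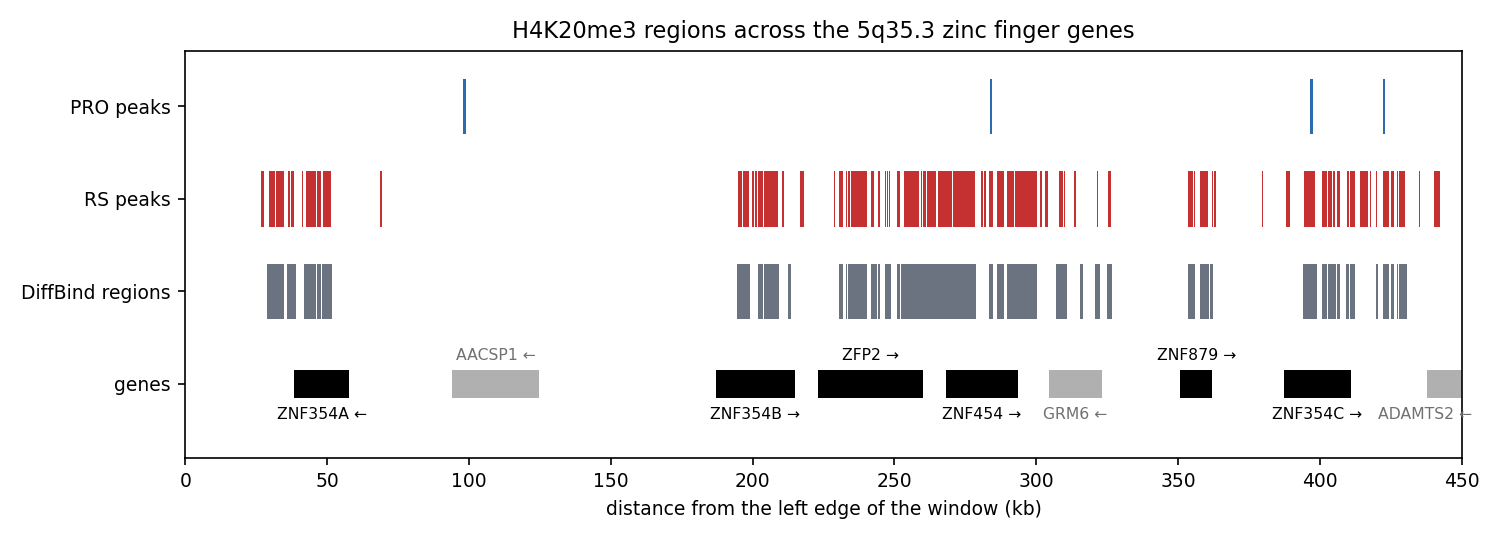
Listed regions and genes along the 450 kb window, with 1 row for each list. The horizontal axis is the distance from the left edge of the window in kb. Black boxes are the 6 zinc finger genes, grey boxes are GRM6, ADAMTS2 and AACSP1, and arrows give the direction of transcription. MSANTD5 and ENSG00000285978, which overlaps ZNF354A, are not drawn. RS and DiffBind regions lie over part of every zinc finger gene and are nearly absent from the 129 kb between ZNF354A and ZNF354B, and the PRO row shows 4 of its 5 peaks, since the fifth is 1 base long.

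The other coding genes of the window and its neighbours had lower RS shares, except for a locus that overlaps ZNF354A. GRM6, a glutamate receptor gene of retinal bipolar cells, lies just after ZNF454 and had 16.1% of its body in RS peaks and 36.5% in DiffBind regions. ADAMTS2, a procollagen peptidase gene that reaches into the right end of the window, had 1.79% in RS peaks, and MSANTD5 at the left end had 0%. This locus, ENSG00000285978, has no gene symbol and had 46.1%, with RS peaks of ZNF354A counted in both. Of the nearest coding genes beyond the edges, CLK4 had 4.30% of its body in a PRO peak and 0% in RS peaks, and RUFY1 had 0% in each list. The other zinc finger genes of 5q35 lie outside the window, and of these ZFP62 had 10.2% of its body in RS peaks and 0% in DiffBind regions, while ZNF346 had 0% in each list.

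All 6 members had RS peaks in their bodies and 2 had a PRO peak. ZNF354A, a KRAB repressor gene first described in kidney, spans 19.1 kb on the minus strand (chr5:178138513-178157660) and had 6 RS peaks over 43.9% of its body and no PRO peak. ZNF354B, its close relative, spans 28.2 kb (chr5:178286954-178315123) and had 7 RS peaks over 41.9% and no PRO peak. The RS shares of this pair lay near each other, and also near those of ZNF879 (45.0%), ZNF354C (46.5%) and ZFP2 (47.8%). Between the pair lay 129 kb of almost bare sequence.

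ZFP2, whose protein in the canonical transcript comes from a single coding exon, is the longest member at 37.3 kb (chr5:178322899-178360213) and had 14 RS peaks over 47.8% of its body and no PRO peak. ZNF454 spans 25.2 kb (chr5:178368192-178393434) and stood above the other members, with 8 RS peaks over 73.9% of its body and a PRO peak of 601 bp over 2.38%. ZNF879, the shortest at 11.3 kb (chr5:178450805-178462065), had 4 RS peaks over 45.0% and no PRO peak. ZNF354C, a further KRAB repressor gene, spans 23.6 kb (chr5:178487374-178510978) and had 8 RS peaks over 46.5% and a PRO peak of 1001 bp over 4.24%.

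The order by RS share was therefore ZNF454, ZFP2, ZNF354C, ZNF879, ZNF354A and ZNF354B. The last 5 lay between 41.9% and 47.8%, and with 1 list for the state there is no spread against which neighbours in this order could be told apart. Summed over the 6 bodies (145 kb), PRO peaks covered 1602 bases (1.11%) and RS peaks 72742 bases, a ratio of 45.4. The limit given for the ratio over the window holds here too.

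As background for these counts, 4.06% of 18985 coding genes of at least 2 kb and 29.9% of 565 zinc finger genes of that length had a PRO peak over 1 base or more. An RS peak was present in 21.7% of the coding genes and in 64.6% of the zinc finger genes, and a DiffBind region in 19.1% and 55.9%. At least 40% of the body lay in RS peaks in 1.16% of the coding genes and in 24.4% of the zinc finger genes. All 6 members pass each of the RS and DiffBind criteria, but they were chosen by this coverage and nothing is read from that.

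**Figure D2:**
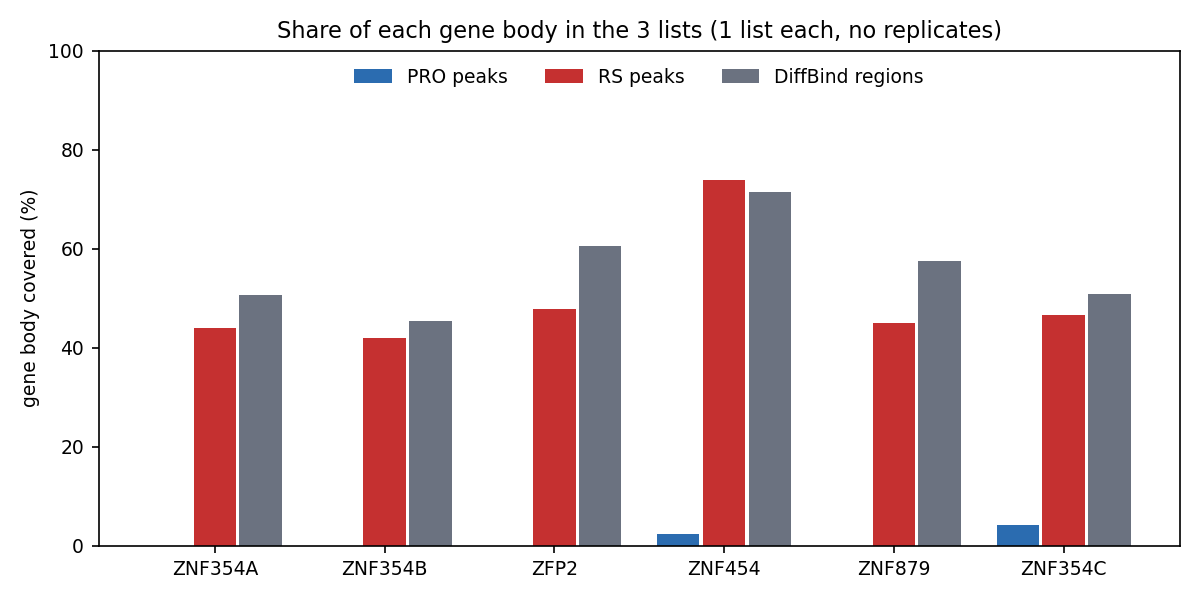
Share of each gene body in PRO peaks, RS peaks and DiffBind regions, in % of bases, with 1 bar for each gene and list and no error bars because each list stands for a whole state. ZNF454 has the tallest RS bar at 73.9%, the other RS bars lie between 41.9% and 47.8%, and PRO bars are seen only at ZNF454 and ZNF354C.

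PRO peaks in the window were followed individually. The pair inside members lay in introns, at chr5:178383801-178384401 in intron 4 of ZNF454 and at chr5:178496401-178497401 in intron 2 of ZNF354C. Each lay wholly within an RS peak and a DiffBind region. A further PRO peak of 601 bp lay beyond the end of ZNF354C (chr5:178522201-178522801) and was also inside RS and DiffBind regions. The peak in AACSP1 (chr5:178198001-178199001) was covered by no RS peak and by no DiffBind region, and the remaining listed PRO peak was 1 base long. The shared bases amounted to 2203, or 68.7% of the PRO bases in the window. Both PRO peaks inside members also held sequence that occurs elsewhere in the genome: 3.80% of the 75-base sequences in the ZNF454 peak and 8.31% of those in the ZNF354C peak had another exact copy.

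Within the genes, RS peaks were absent from the starts of most members. This is common, as 29.2% of zinc finger genes of at least 2 kb had an RS base within 2 kb of the start. Each member's body was divided into 10 bins of equal length, numbered from 1 at the transcription start. Such bins were not computed for other zinc finger genes. Bins 1 and 2 had a median RS share of 0% over the 6 members, and 4 members had no RS base in bin 1. Bin 4 reached a median of 88.2%, bin 7 76.7% and bin 8 84.6%, and bin 10 had 32.5%. The share of RS bases lying in the 3′ part of the gene, past its midpoint, was 66.7% for ZNF354A, 64.1% for ZNF354B, 60.5% for ZNF879, 54.0% for ZFP2, 50.8% for ZNF354C and 45.2% for ZNF454.

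**Figure D3:**
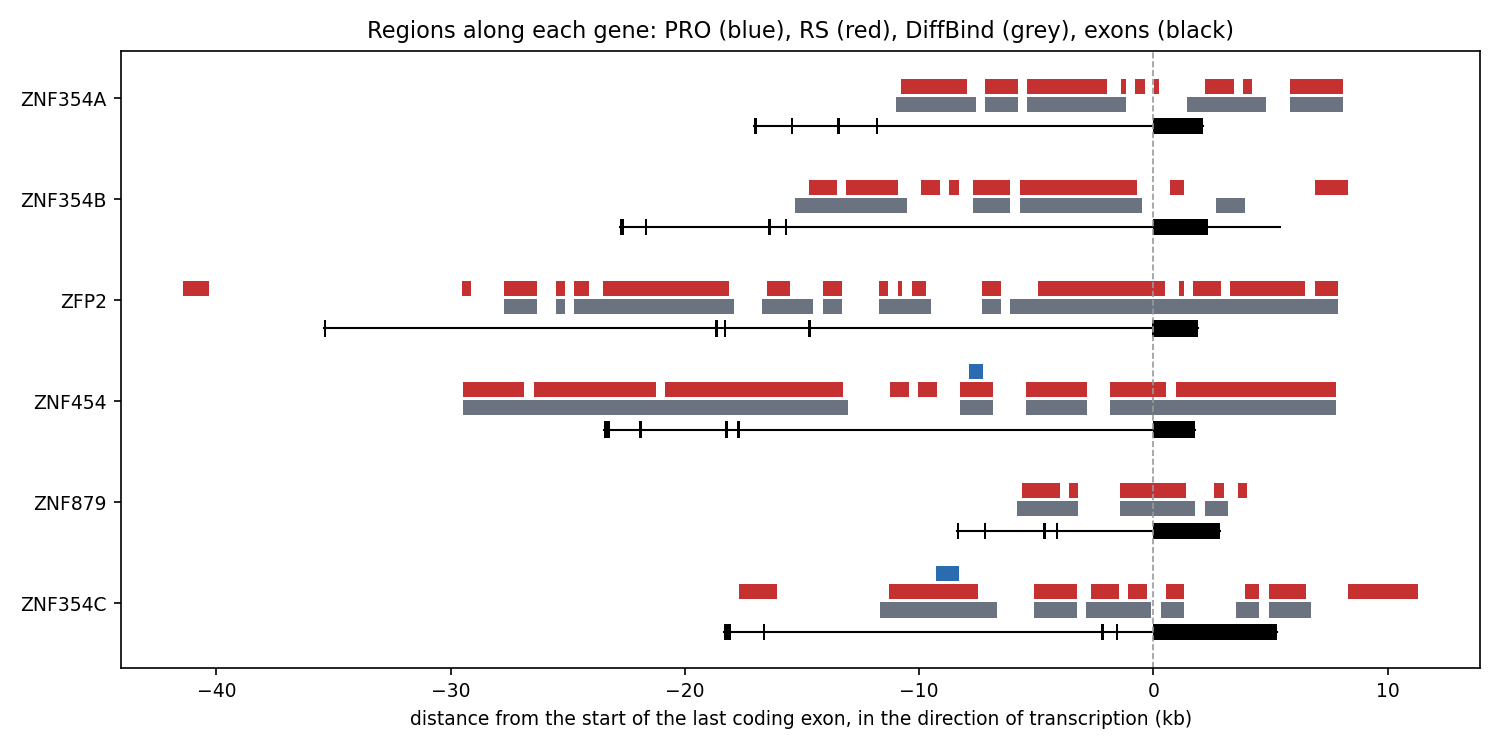
Regions along each gene, drawn in the direction of transcription and placed by distance (kb) from the start of the last coding exon; blue marks are PRO peaks, red RS peaks, grey DiffBind regions, and black blocks exons, with up to 6 kb shown on either side of the body. In ZNF354A and ZNF354B the red marks begin 6.26 kb and 8.05 kb after the gene start and lie mostly in the last intron, and in ZNF454 they run across the start.

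ZNF454 differed from the other members at its start. The whole 4 kb centred on the start of its canonical transcript (2 kb on each side) lay in RS peaks and in a DiffBind region and in no PRO peak. The short divergent non-coding gene ZNF454-DT, 547 bp long just upstream, was covered over 100% of its length by RS peaks. ZNF354C had 34.3% of the same 4 kb in RS peaks and 0% in DiffBind regions, with its nearest RS peak 0.627 kb from the start. The other 4 members had no RS base within 2 kb of the start of the canonical transcript. Among the zinc finger genes of at least 2 kb, 29.2% had an RS base within 2 kb of the start, against 4.07% of coding genes, and 0.708% of the zinc finger genes (4 of 565) had the whole 4 kb covered, ZNF454 included.

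Distances from the gene start to the first RS peak were 2.80 kb in ZNF879, 5.90 kb in ZFP2, 6.26 kb in ZNF354A and 8.05 kb in ZNF354B. ZFP2 has a further annotated start at position 178339707, used by 2 of its 5 transcripts, and this start lay in an RS peak and in a DiffBind region, whereas its canonical start at 178322914 lay 4.91 kb from the nearest RS peak. With the transcript of the longest coding sequence in place of the canonical transcript, the share of the 4 kb around the starts in RS peaks, pooled over the members, was 32.8% in place of 22.4%.

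The 250 bases before the start are shown for ZNF454, covered in full by an RS peak, and for ZNF354C, where the nearest RS peak stopped short of them. Capitals mark CpG dinucleotides, the sites of DNA methylation.
ZNF454, chr5:178367949-178368198, plus strand: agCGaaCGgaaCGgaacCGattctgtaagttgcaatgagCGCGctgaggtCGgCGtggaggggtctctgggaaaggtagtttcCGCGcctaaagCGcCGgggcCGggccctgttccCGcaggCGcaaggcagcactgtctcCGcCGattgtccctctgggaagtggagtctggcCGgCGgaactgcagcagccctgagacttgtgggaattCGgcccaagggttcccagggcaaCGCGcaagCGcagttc
ZNF354C, chr5:178487124-178487373, plus strand: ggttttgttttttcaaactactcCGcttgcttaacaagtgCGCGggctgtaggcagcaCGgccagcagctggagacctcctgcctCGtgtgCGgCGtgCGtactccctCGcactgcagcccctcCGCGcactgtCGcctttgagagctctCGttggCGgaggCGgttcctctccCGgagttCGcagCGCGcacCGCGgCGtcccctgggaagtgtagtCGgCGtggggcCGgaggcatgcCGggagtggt
The stretch from ZNF454 held 23 CpG dinucleotides and that from ZNF354C held 26. Over 300 bases, from 250 before to 50 after the start, the 6 members held 19 (ZNF354B) to 33 (ZNF354C) CpG dinucleotides, and ZNF454 with 27 lay inside the range of the uncovered starts. The median over 20136 coding genes was 23, and over 566 zinc finger genes it was 22.

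Introns carried most of the covered bases, but they also made up 122365 of the 144742 bases of the bodies. RS peaks covered 50.3% of the whole bodies. Pooled over the members, RS peaks covered 52.9% of intron bases, 57.0% of the coding exons before the last, 53.0% of the coding part of the last coding exon, 41.1% of the 5′ untranslated exons and 25.4% of the 3′ untranslated regions. In ZNF354A intron 4, 11.8 kb long, was 69.8% covered and held 97.6% of the RS bases of the gene. In ZNF354B intron 4, 15.6 kb long, was 71.7% covered and held 94.9%. In both of these relatives the start and the early exons had no RS base. In ZNF454 intron 4 held 63.7% of the RS bases of the gene, and in ZNF354C intron 2 held 59.6%. In ZFP2 and ZNF879 the longest intron held 42.6% and 37.1% of the RS bases. The longest intron made up unlike parts of the bodies. It measured 17.7 of 25.2 kb in ZNF454, 14.3 of 23.6 kb in ZNF354C, 16.6 of 37.3 kb in ZFP2 and 4.08 of 11.3 kb in ZNF879. These shares therefore do not compare how evenly the peaks were spread.

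**Figure D4:**
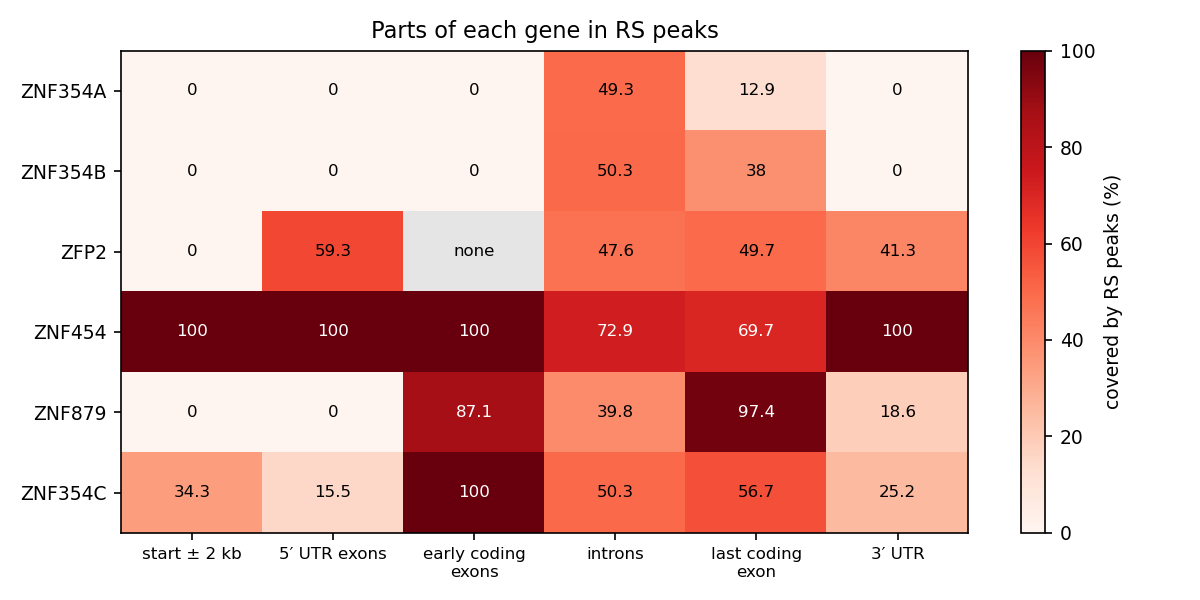
Share (%) of each part of each gene in RS peaks, with genes as rows, parts of the canonical transcript as columns and deeper red for a larger share; "none" marks a part that the transcript lacks, and the last coding exon is its coding part. The row of ZNF454 runs from 69.7% to 100% over the 6 columns, and the start column is 0 for ZNF354A, ZNF354B, ZFP2 and ZNF879.

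The zinc finger arrays differed widely between members. RS peaks covered 96.8% of the array of ZNF879, 87.2% of that of ZNF354C, 60.8% in ZNF454, 52.0% in ZNF354B, 35.4% in ZFP2 and 0% in ZNF354A. DiffBind regions covered 100% of the arrays of ZFP2, ZNF454, ZNF879 and ZNF354C, 10.6% of that of ZNF354A and 0% of that of ZNF354B. The part of the ZNF354B array in an RS peak (52.0%) thus lay outside the DiffBind list. No PRO peak touched an array. The arrays total 6372 bases and PRO peaks covered 1.11% of the bodies, so nothing is read from this absence. The arrays of ZNF354A and ZNF354B were also those with repeated sequence: 14.5% of the 75-base sequences in each had another exact copy in the genome, and in the other 4 arrays 0% had. The part of this in their coverage was not tested.

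The linker bases printed above were also searched as a motif, ACNGGNGANAANCCN on both strands, where N is any base. Of 49 matches in the window, 48 lay in the last coding exons of the members, 25 lay in RS peaks, 35 in DiffBind regions and 0 in PRO peaks. The motif was present in 7 of the 74 RS peaks. In steps of 200 bp, 2.76% of the windows inside RS peaks and 0.898% of the others held it, against 0.0277% along all of chromosome 5. Nearly all matches lay in members chosen by their RS coverage, so nothing is read from these differences. RS peaks covered 53.0% of the coding part of the members' last coding exons, where the matches lay. Most RS peaks at this place held no linker. A match is a description of the letters only. The median base composition was 47.5% GC over 580 such steps inside RS peaks and 43.5% over 1670 steps outside them.

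The DiffBind list overlapped the RS list closely but not fully. Of the 74 RS peaks in the window, 52 (70.3%) lay wholly inside DiffBind regions and 22 lay outside, and 84.0% of the RS bases were in DiffBind regions. In the other direction, 79.3% of the DiffBind bases were in RS peaks, 36 of 38 DiffBind regions overlapped an RS peak and 3 overlapped a PRO peak. The RS peaks inside DiffBind regions had a median length of 1301 bp and those outside 801 bp. The 2 DiffBind regions without an RS peak lay in ZNF354B (chr5:178312401-178313601) and in GRM6 (chr5:178415601-178416601), and neither overlapped a PRO peak.

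By member, DiffBind regions covered 71.5% of the body of ZNF454, 60.6% of ZFP2, 57.4% of ZNF879, 50.8% of ZNF354C, 50.6% of ZNF354A and 45.5% of ZNF354B. ZNF454 was the member whose DiffBind share was below its RS share. All RS bases of ZNF879 were in DiffBind regions (100%), and the lowest share was 84.7% in ZNF354B. The longest DiffBind region of the window measured 26401 bp, against 7601 bp for the longest RS peak.

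Among the 18985 coding genes of at least 2 kb, ranked by RS share, ZNF454 stood at rank 50 and the other members between ranks 167 and 205. Among the 565 zinc finger genes, ZNF454 stood at rank 26 and the others between ranks 113 and 132, so many zinc finger genes elsewhere had larger shares. The median RS share was 45.8% over the 6 members and 11.4% over the 559 other zinc finger genes, or 30.4% over the 359 of these with an RS peak. As the members were chosen by this share, the difference has no test.

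By part of the gene, the last coding exon was 53.0% covered by RS peaks in the members and 56.0% in the 359 other zinc finger genes that had an RS peak, and the 4 kb around the start 22.4% and 18.8%. Introns were 52.9% and 21.5% covered, but introns make up most of the body length on which the members were chosen, so nothing is read from their difference. These shares pool the bases of all genes of a set. In the members, the RS bases around the start came from ZNF454 and ZNF354C only.

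Other clusters of zinc finger genes near chromosome ends gave a range around these values. In 12q24.33 the RS shares of 7 genes ran from 56.8% to 78.2% with a median of 66.5%, and all 7 had a PRO peak. In 4p16.3 the shares of 5 genes ran from 30.1% to 66.9% with a median of 46.5%, and 4 had a PRO peak. In 16p13.3 the median over 8 genes was 6.63%, with an RS peak in 4 of them and a PRO peak in 3. The 5q35.3 genes were thus near those of 4p16.3 in RS coverage, with a PRO peak in 2 of 6 genes. Of all zinc finger genes of at least 2 kb, 29.9% had a PRO peak, so nothing is read from this count.

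**Figure D5:**
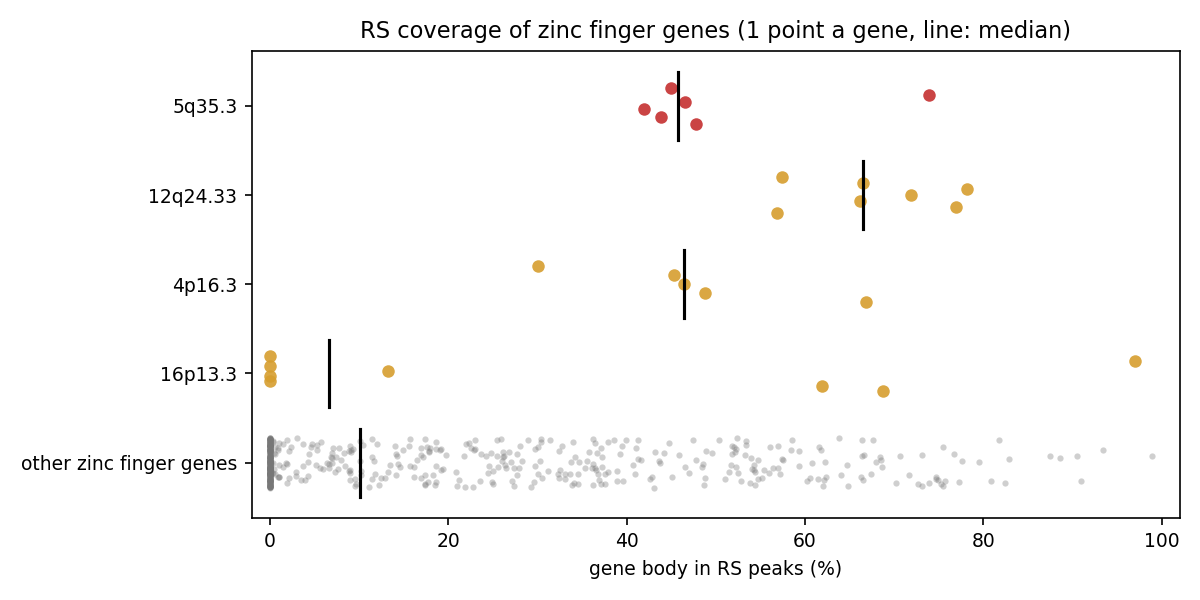
RS coverage of the body (%, horizontal axis) for zinc finger genes of at least 2 kb, with 1 point for each gene and a black line at the median of each row; vertical scatter within a row has no meaning. The 5q35.3 row has its median at 45.8% with ZNF454 apart at 73.9%, and the row of 539 zinc finger genes outside the named clusters has its median at 10.1% with many genes at 0.

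The coding genes whose shares in the 3 lists were nearest to the pooled members were ZNF540, MAPK9, ERV3-1, ZNF136 and ZNF483, by the distance between the 3 percentages. Of these, MAPK9, which encodes the stress kinase JNK2, also lies on chromosome 5. It had 50.9% of its 59.0 kb in RS peaks, 54.3% in DiffBind regions and 0% in PRO peaks. This gene is not named as a zinc finger gene, and its RS share was larger than that of every member except ZNF454. Among zinc finger genes alone the nearest were ZNF540, ZNF136, ZNF483, ZNF738 and ZNF699.

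A read from a stretch with an exact copy elsewhere has no unique position, and the lists do not say how such reads were treated. In the window 3.20% of 75-base sequences had another exact copy, with 7.80% in ZNF354A, 4.99% in ZNF354B and less than these in the other members. Of the 74 RS peaks, 32 (43.2%) held at least 1 such sequence, as did 3 of the 5 PRO peaks. Dropping every region with such a sequence left 15.3% of the bodies in RS peaks and 0% in PRO peaks. Leaving out only the repeated bases themselves, from the regions and from the length, gave 49.4% and 0.899%.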

How the data were processed

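H4K20me3 ChIP-seq of IMR90 cells was represented by 3 deposited lists. Per the labels and the methods, the authors aligned reads to hg19 with Bowtie2 (2.1.0), called domains with SICER (1.1) in 200 bp windows against histone H4, and intersected the domains of 2 antibodies per state. The authors made a further list with DiffBind (1.8.3). The deposited values are positions only (unit: other, in bases), with no counts, heights, p-values or direction, so the lists show neither depth nor precision. The study's supplement gives read numbers and duplicate shares for each library. Both differed widely between the H4K20me3 libraries, and they were not used here. That list is shorter here than the study's text gives, the sources name different count models for it, and the treatment of reads with several positions is not given in the sources used here. There were 0 per-sample columns.

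Coverage was computed with Python 3.11.15 and numpy 2.4.6 on GRCh37 with GENCODE release 44, counting overlap from 1 base and printing positions 1-based. The interval code was tested on simulated data. Gene parts came from the canonical transcript, C2H2 fingers from the translated reference, protein identity from Biopython 1.88 (BLOSUM 62), and repeats from exact 75-base copies on either strand. The named genes were the 6 members, the coding genes of the window and next to it, the other zinc finger genes of 5q35, the 5 nearest genes by the 3 shares, and 3 clusters given by range. Members, lists and alternatives were chosen with earlier results of these data known. No test was run, as each state is 1 list. Alternatives changed the minimum peak length, gaps, window, transcript, overlap rule and repeats, and their effect is given in the closing section.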

Additional observations from a re-analysis of the deposited data

How the results depend on the processing

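Over 16 results and 10 settings, 82 values were recomputed, and 59 stayed within the range set for them (for a share, its 95% binomial interval over 200 bp steps). The other 23 are given below, in %, with some that stayed within it. With peaks of at least 1000 bp, RS peaks covered 21.7 of the window, 42.3 of the bodies, 45.7 of introns, 32.2 of last coding exons and 13.9 of 3′ untranslated regions, 84.2 of RS peaks overlapped DiffBind regions, and PRO peaks touched 1 member and covered 0.445 of the window and 0.692 of the bodies, which stayed within the range though both fell by more than 1.5 times. With gaps of up to 1000 bp merged, RS covered 30.7 of the window, 60.5 of the bodies, 63.1 of introns and 71.8 of last coding exons, and DiffBind 29.3 and 60.4 of window and bodies. With the window widened by 100 kb on each side, RS covered 18.2 and DiffBind 19.5. With regions holding a repeated 75-base sequence dropped, PRO, RS and DiffBind covered 0.134, 9.34 and 6.27 of the window and 0, 15.3 and 14.4 of the bodies. Leaving out only repeated bases, a setting chosen after seeing the data, stayed within the range and gave 0.628, 25.5 and 27.0 of the window and 0.899, 49.4 and 56.1 of the bodies. With the transcript of the longest coding sequence, RS covered 32.8 of the starts. Under the stricter overlap rule, PRO peaks touched 0 members. The cause of these moves was not tested beyond what each setting leaves out.

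No paired analysis was possible because PRO and RS are each given as a merged list of both antibodies. For the same reason no antibody was left out in turn. With no read depth in the lists, absence of a peak does not show absence of the mark.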
